A study of Mus musculus with 2 samples.

Results

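The miR-130/miR-301 family was followed in small RNA sequencing of mouse embryonic hearts. Its members were taken by name, as every precursor whose mature miRNA is called miR-130a, miR-130b, miR-301a or miR-301b, whichever arm is named. This gave 6 of the 620 precursor entries found in either of 2 libraries, and all 6 were listed in both. They hold 4 different mature sequences from 4 hairpins, because miR-130a-3p and miR-301b-5p were each entered at a second, overlapping precursor. Both libraries were made from hearts of wild type C57BL/6 embryos at embryonic day 9.5 (E9.5), with no other genotype, treatment or stage, so no conditions could be compared. The whole organ was taken, with several cell types in it, and how many hearts went into a library, or whether the libraries came from separate litters, is not given in the sources used here.

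A miRNA gene is transcribed as a long RNA with a hairpin in it, and the hairpin is trimmed by Drosha and then Dicer to leave a duplex of its 5′ (5p) and 3′ (3p) arms. One strand is kept by an Argonaute protein and finds target mRNAs mainly through its seed, the bases that follow the first nucleotide. The family is defined by the seed of its 3p arms, which all members share. Its members are known for work in blood vessels and blood cells, and miR-130a is known in the embryonic heart for repression of Zfpm2 (Fog2), a cofactor of GATA4. The 5p arms are usually treated as passenger strands.

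The sequences of both arms are shown here because the family is named for the seed of one arm while most of its reads lay on the other. They are the consensus sequences of the deposited tables, written 5′ to 3′ with bases 2 to 8, the seed, in capitals. The 3p arms were the following.
miR-130a-3p: cAGUGCAAuguuaaaagggc
miR-130b-3p: cAGUGCAAugaugaaagggca
miR-301a-3p: cAGUGCAAuaguauugucaaagca
miR-301b-3p: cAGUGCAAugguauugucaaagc

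The 5p arms of the same hairpins were the following.
miR-130a-5p: gCUCUUUUcacauugugcuac
miR-130b-5p: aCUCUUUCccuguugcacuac
miR-301a-5p: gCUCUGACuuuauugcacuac
miR-301b-5p: gCUCUGACuagguugcacuac

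The 3p arms had 1 seed among the 4 of them, and the 5p arms had 3 seeds. Counted from the 5′ end, miR-301a-3p and miR-301b-3p were identical at 22 of 23 positions, with A10G as the difference. MiR-130a-3p and miR-130b-3p were identical at 18 of 20 positions and differed by U11A and A13G. Between the pairs the 3p arms had less in common after the seed, with 11 of 20 positions identical between miR-130a-3p and miR-301a-3p. On the 5p side, miR-301a-5p and miR-301b-5p shared their seed and 18 of 21 positions, differing by U10A, U11G and A12G. MiR-130a-5p and miR-130b-5p were identical at 14 of 21 positions, and 1 of the differences, U8C, lay in the seed. MiR-130b-5p had slightly more in common with miR-301b-5p, at 15 of 21 positions.

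The hairpins lie at 3 places in the genome (NCBIM37, the assembly also called mm9), which the map of precursor entries draws to scale. They are printed here with both arms in capitals and the loop in lower case.
miR-130a: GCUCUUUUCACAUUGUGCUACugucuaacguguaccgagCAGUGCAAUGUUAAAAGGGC
miR-130b: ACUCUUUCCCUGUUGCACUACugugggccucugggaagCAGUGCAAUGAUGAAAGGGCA
miR-301a: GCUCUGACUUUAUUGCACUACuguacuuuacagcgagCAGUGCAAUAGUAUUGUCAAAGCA
miR-301b: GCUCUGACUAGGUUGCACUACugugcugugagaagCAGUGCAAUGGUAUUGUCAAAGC

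The miR-130a hairpin lies between genes on the minus strand at chr2:84581275-84581333, 2463 bp from Ypel4 and 24211 bp from Serping1. The miR-301a hairpin lies at chr11:86926519-86926579 on the plus strand, in intron 1 of Fam33a, which RefSeq calls Ska2, a gene of the mitotic spindle and kinetochore. MiR-301b, at chr16:17124513-17124570, and miR-130b, at chr16:17124165-17124223, lie on the minus strand in intron 1 of 2610318N02Rik. These neighbours are 289 bp apart, with miR-301b first in the direction of transcription. No other entry lay within 10 kb of any of the 4 hairpins. The predicted folding energies were close to each other, -20.6 kcal/mol for miR-130a, -20.0 for miR-301a, -18.7 for miR-130b and -18.3 for miR-301b.

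**Figure D1:**
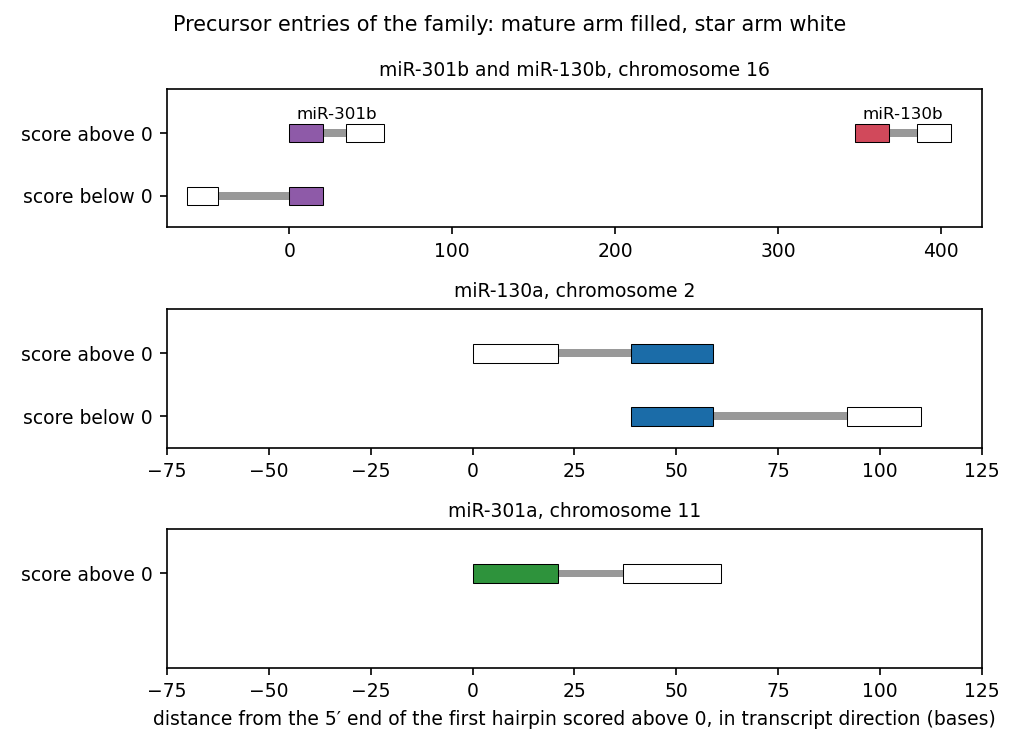
Position of the 6 precursor entries of the family, drawn to scale within each panel, in bases from the 5′ end of the first hairpin scored above 0, along the direction of transcription. Filled boxes are arms listed as mature, white boxes are star arms and grey bars are loops. The entries scored below 0 share the mature arm of miR-301b and of miR-130a, and miR-130b follows miR-301b after a gap of 289 bp.

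The complement of the family seed, UUGCACU, was found in the 5p arms of miR-130b, miR-301a and miR-301b, each time at positions 13 to 19, and not in that of miR-130a. In these 3 hairpins the seed of the 3p arm can therefore pair along its whole length with the arm opposite it by A-U and G-C pairs alone. The search left out pairs of G with U, which would let the seed of miR-130a-3p pair along its whole length too. Of 306 entries whose mature and star reads came to 100 or more in each replicate, 21 (6.86%) had the complement of the 3p seed within the 5p arm in this way.

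All 4 5p sequences ended 1 base before the RefSeq mature forms (table of GRCm38.p6), and all 7 arms with a RefSeq entry began at the same base. MiR-130a-3p ended 2 bases before its RefSeq form, whereas miR-301a-3p ended 1 base after it. MiR-130b-3p ended with the A shown above in replicate 1 and without it in replicate 2, which are 1 and 2 bases before the RefSeq end. Among 348 entries with the same start as their RefSeq form, 140 (40.2%) were shorter, 164 equal and 44 longer. Of the 348, 33.0% were shorter by 1 base and 5.75% by 2 bases. MiR-301b-3p was not compared. RefSeq lists miR-130c, miR-721, miR-6341 and miR-6389 with the same seed, and none of these had an entry in the tables. No entry outside the family had this seed on its mature or star arm. One entry, miR-6952-3p, had the 5p seed of miR-301a and miR-301b, with 25 mature reads in replicate 1 and no entry in replicate 2.

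The tables give raw reads for each part of a precursor, with 1 arm called mature and the other called star. The mature arm has more reads in most entries but not in all. MiR-214-5p, for example, had 243 mature and 319 star reads in replicate 1. Replicate 1 listed 568 entries with 4942257 mature and 124128 star reads, and replicate 2 listed 523 with 4806179 and 132103. Each mature sequence was counted once within a list of cell markers, while the totals kept every entry, repeated sequences included. In this way 11.4% and 11.9% of mature reads lay on 5 miRNAs of cardiomyocytes, of which miR-208a-3p was listed in replicate 1 only. Totals with each sequence once would be smaller and these shares larger. A further 2.90% and 2.87% lay on the endothelial miR-126a-3p, and 7.94% and 6.82% on miR-143-3p and miR-145a-5p of smooth muscle. Counted in the same way, other lists held less, 0.436% and 0.424% for pluripotent cells and 0.113% and 0.140% for erythroid cells. The neural miR-9-5p and miR-124-5p held 0.00484% and 0.00370%, and miR-122-5p of liver 0.0421% and 0.0554%. MiR-128 was also on the neural list but is left out of its sums here. Its entry miR-128-1-3p alone held 0.120% and 0.146%, far more than the neural miRNAs that were summed. Counted by entry, where repeated sequences add up, the lists of cardiomyocytes, erythroid and neural cells came to 22.6% and 23.5%, 0.219% and 0.273%, and 0.0193% and 0.0148%. Since the organ was sequenced whole, a level set by few expressing cells and one set by little RNA in each cell cannot be told apart.

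MiR-130b-5p was the most abundant member in both replicates. It had 2609 mature reads in replicate 1 and 3113 in replicate 2, or 0.0528% (95% Wilson interval 0.0508% to 0.0549%) and 0.0648% (0.0625% to 0.0671%) of all mature reads. The mean was 0.0588% ± 0.0085 (SD, n = 2), rank 126 of the 471 entries listed in both replicates.

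MiR-301a-5p came next in both replicates. It had 1926 and 1994 mature reads, or 0.0390% and 0.0415%, with a mean of 0.0402% ± 0.0018 (SD, n = 2) and rank 153. The range of miR-301a-5p lay below that of miR-130b-5p and above those of the other members.

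MiR-130a-3p, the member best known in the heart, had 662 and 671 mature reads. These were 0.0134% and 0.0140% of mature reads, with a mean of 0.0137% ± 0.00040 (SD, n = 2) and rank 210. Its coefficient of variation, 2.93%, was the smallest among the members but near that of miR-301a-5p, 4.43%. With 2 replicates these values do not rank how steady the members are. MiR-130a-3p was the only member whose mature arm carried the family seed.

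MiR-301b-5p had 697 and 562 mature reads. These were 0.0141% and 0.0117%, with a mean of 0.0129% ± 0.0017 (SD, n = 2) and rank 216. It stood above miR-130a-3p in replicate 1 and below it in replicate 2, so the order of this pair was not resolved.

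Entries of nearly the same level were sought by the distance of their log2 shares over the 2 replicates, which compares levels only. The nearest to miR-130b-5p were let-7a-5p (2631 and 3327 mature reads) and miR-23b-3p (2654 and 2809). Those nearest to miR-301a-5p were miR-125b-5p (1975 and 2053) and miR-149-5p (1796 and 2040). For miR-130a-3p they were miR-194-5p (641 and 663) and miR-139-5p (666 and 711). For miR-301b-5p they were miR-3081-3p (627 and 543) and miR-291a-3p (608 and 562).

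Over its 6 entries the family held 7253 and 7573 mature reads, 0.147% and 0.158% of the totals, with a mean of 0.152% ± 0.0076 (SD, n = 2). Counting the 4 sequences once left 5894 and 6340 reads, 0.126% ± 0.0089 of the same totals. Families with related seeds, also summed by name whichever arm was mature, held far more mature reads. The 3 entries of miR-148 and miR-152 held 6.42% ± 0.93. The 7 entries of miR-17, miR-20, miR-93 and miR-106 held 1.96% ± 0.060, or 1.63% ± 0.052 with each sequence once (SD, n = 2 for each). The latter sums include miR-106b-3p (0.366% and 0.455%), which is not the arm the family is grouped by. These sums therefore do not compare reads that carry the seeds.

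The overlapping precursors repeated the mature reads of miR-130a-3p and miR-301b-5p exactly and added no other arm. The further miR-130a-3p entry, at chr2:84581224-84581294, shared 20 bases with the hairpin and placed the same sequence on the 5p side. The further miR-301b-5p entry, at chr16:17124550-17124633, shared 21 bases and placed it on the 3p side. Both had 0 star reads in both replicates and miRDeep2 scores, the log-odds that a precursor is real, of -4.0 and -1.7. The hairpins scored above 0 in both replicates, miR-130b at 1400 and 1700, miR-301a at 1000 in each, miR-301b at 440 and 370, and miR-130a at 2.3 in each. Among the 471 entries in both replicates, 147 (31.2%) shared their mature sequence with another, and 68 (14.4%) scored below 0 in both, of which 61 (89.7%) had no star reads. The arms are therefore described from the 4 hairpins scored above 0.

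Most reads of miR-130b, miR-301a and miR-301b lay on the 5p arm, and most reads of miR-130a lay on the 3p arm. MiR-130b had 2609 and 3113 reads on the 5p arm and 294 and 325 on the 3p arm. The 5p arm thus held 89.9% (95% Wilson interval 88.7% to 90.9%) and 90.5% (89.5% to 91.5%) of the reads on both arms, or 90.2% ± 0.48 (SD, n = 2).

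MiR-301a was the most one-sided of the 4. It had 1926 and 1994 reads on the 5p arm and 128 and 122 on the 3p arm. The 5p share was 93.8% (92.6% to 94.7%) and 94.2% (93.2% to 95.1%), or 94.0% ± 0.33 (SD, n = 2).

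MiR-301b had the most balanced arms. It had 697 and 562 reads on the 5p arm and 163 and 166 on the 3p arm. The 5p share was 81.0% (78.3% to 83.5%) and 77.2% (74.0% to 80.1%), or 79.1% ± 2.7 (SD, n = 2), and the Wilson intervals of the replicates overlapped.

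MiR-130a was the opposite of the other three. It had 87 and 74 reads on the 5p arm and 662 and 671 on the 3p arm, a 5p share of 11.6% (9.51% to 14.1%) and 9.93% (7.99% to 12.3%), or 10.8% ± 1.2 (SD, n = 2). The tables name this entry miR-130a-5p and mark its reads in a further column as those of the opposite arm, so it is called miR-130a-3p here.

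**Figure D2:**
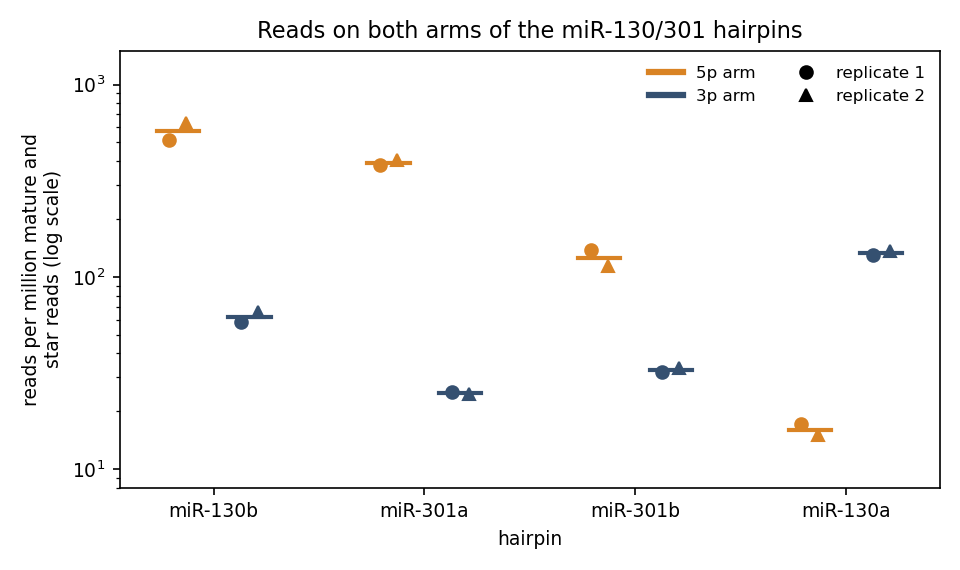
Reads on the 5p (orange) and 3p (blue) arm of each hairpin, scaled to the mature and star reads of each replicate, on a log axis. Circles are replicate 1, triangles replicate 2 and bars their mean, and the 5p arm is the higher one in miR-130b, miR-301a and miR-301b but the lower one in miR-130a.

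Listed entries were split nearly evenly between the arms. Of the same 306 entries, 151 (49.3%) had their mature arm on the 5p side and 155 on the 3p side. Some sequences are counted on both sides, because an overlapping precursor places them on the other arm. The split is therefore one of entries, not of separate hairpins. Their star arm, taken here as the minor arm, held 1.09% of the reads at the median, with quartiles of 0.0162% and 7.88%. In a few entries it held more reads than the mature arm, for example 55.2% in miR-214-5p. No star reads were found for 67 entries, among them the overlapping precursors of the family. The minor arms of the family were larger than the median, at 20.9% for miR-301b, 10.8% for miR-130a, 9.79% for miR-130b and 6.00% for miR-301a. The share of the 306 entries with a smaller minor arm was 87.9%, 78.1%, 77.1% and 70.6%, in the same order. Overlapping precursors and repeated sequences were kept among the 306, but overlapping precursors were left out for the family. Such precursors without star reads lower the median and raise these shares, by an amount that was not measured. In all, 68 of the 306 (22.2%) had a minor arm above 10%.

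**Figure D3:**
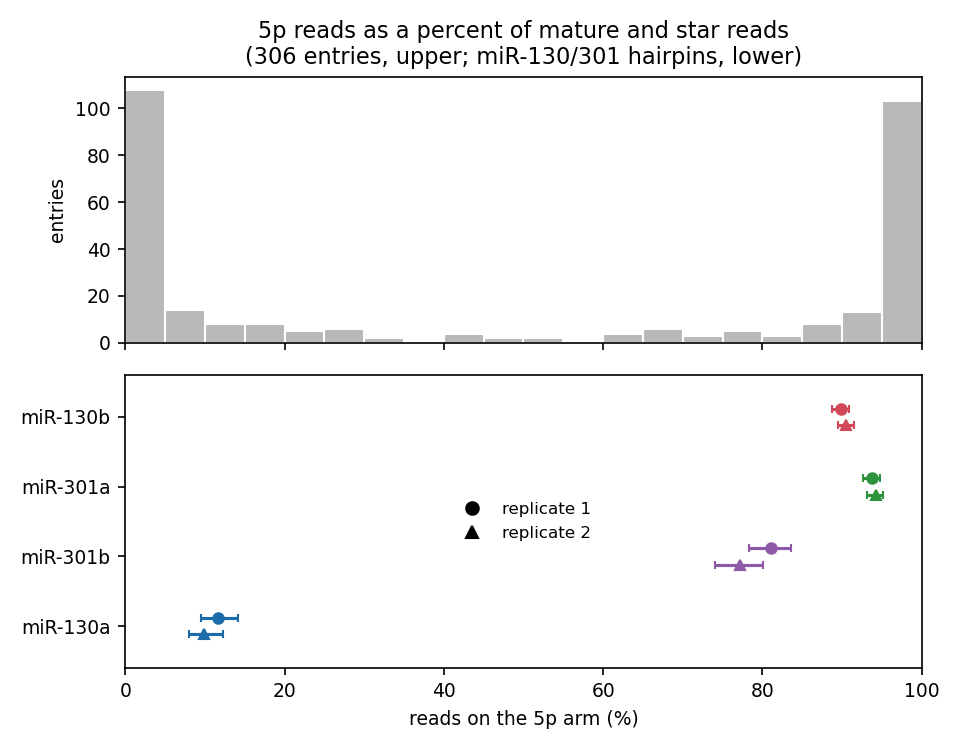
Percent of mature and star reads on the 5p arm, as a histogram over 306 entries (upper panel) and for the 4 hairpins with 95% Wilson intervals (lower panel, circles replicate 1, triangles replicate 2). Most entries lie near 0 or 100%, and the hairpins of the family lie inward of both ends, from 9.93% for miR-130a to 94.2% for miR-301a.

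The order of the members depended on the arm that was counted. On the 3p arm, which carries the family seed, miR-130a was the highest with 662 and 671 reads, followed by miR-130b (294 and 325), miR-301b (163 and 166) and miR-301a (128 and 122). On the 5p arm miR-130b was the highest and miR-130a the lowest, with miR-301a above miR-301b. Neighbours in these orders did not overlap between the replicates on either arm.

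In sum, the arms with the family seed held 1247 and 1284 reads, 0.0246% and 0.0260% of mature and star reads, or 0.0253% ± 0.00098 (SD, n = 2). MiR-130a-3p gave 53.1% and 52.3% of them, miR-130b-3p 23.6% and 25.3%, miR-301b-3p 13.1% and 12.9% and miR-301a-3p 10.3% and 9.50%. The 4 5p arms held 5319 and 5743 reads, 0.105% and 0.116%. By seed, miR-301a-5p and miR-301b-5p together gave 2623 and 2556 reads, miR-130b-5p 2609 and 3113, and miR-130a-5p 87 and 74. The seed of miR-301a-5p and miR-301b-5p and that of miR-130b-5p were thus each read more often than the seed that names the family.

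The replicates were compared entry by entry to see whether the members differed beyond read-counting error. Of 431 entries with at least 20 mature reads in sum, 177 (41.1%) differed by an exact binomial test at an adjusted p of 0.05. Among the family, 2 of 4 mature sequences (3 of 6 entries) did so, which is near that background. MiR-130b-5p was higher in replicate 2, with a log2 ratio of 0.30 (95% interval 0.22 to 0.37, adjusted p = 7.6e-14, exact binomial test). MiR-301b-5p was lower in replicate 2, with a log2 ratio of -0.27 (-0.43 to -0.11, adjusted p = 0.0031, exact binomial test). The differences of miR-301a-5p, 0.09 (-0.00073 to 0.18, adjusted p = 0.11), and of miR-130a-3p, 0.06 (-0.10 to 0.22, adjusted p = 0.60), did not pass the same exact test.

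The differences of miR-130b-5p and miR-301b-5p were larger than those of most entries with many reads, and those of the other members were smaller. Among 223 entries that reached 500 mature reads in each replicate, whose median absolute log2 ratio was 0.12, 82.1% differed by less than miR-130b-5p and 78.5% by less than miR-301b-5p. For miR-301a-5p and miR-130a-3p those shares were 40.4% and 23.8%. The binomial test takes account of counting error alone. The spread between the libraries over all entries, as edgeR's common dispersion, was a biological coefficient of variation of 15.2%. The coefficients of variation of miR-130b-5p and miR-301b-5p were 14.4% and 13.2%. An exact test with that dispersion called 3 of the 431 entries, and 10 at an unadjusted p under 0.05, none of them members. Since the dispersion came from the difference between these same 2 libraries, few entries could pass, and the test says nothing about the members.

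**Figure D4:**
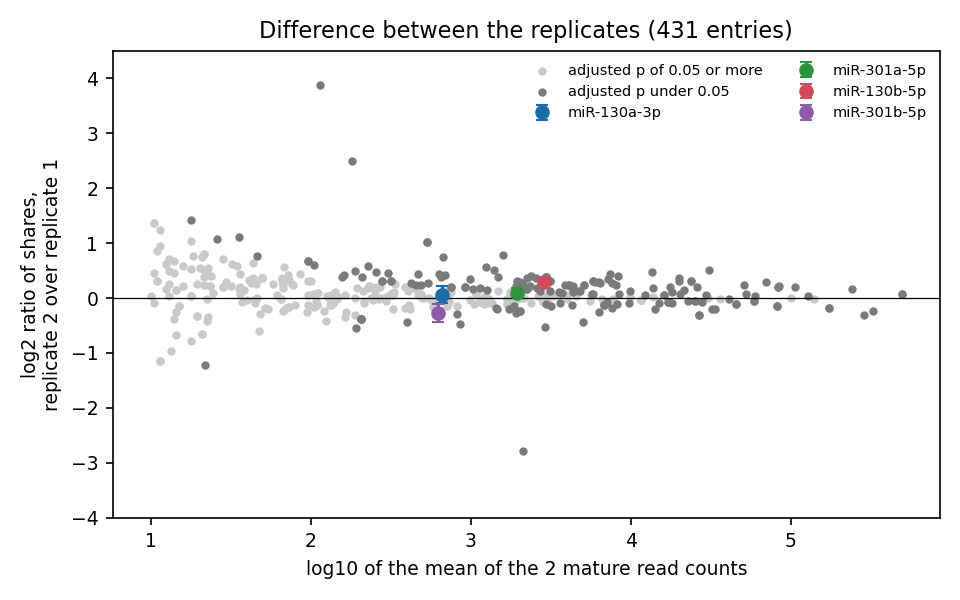
Log2 ratio of the share of mature reads in replicate 2 over replicate 1 against the log10 of the mean of both counts, for 431 entries. Coloured points are the members with 95% exact intervals, dark grey points are entries with an adjusted p under 0.05, and miR-130b-5p (0.30) and miR-301b-5p (-0.27) lie on opposite sides of 0 within the cloud of other entries.

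On the star arms, none of the 4 hairpins differed between the replicates, with adjusted p from 0.45 to 0.89 by the exact binomial test, against 25 of 177 entries (14.1%) with the same mature arm in both. These arms had fewer reads, 74 to 325, so that the intervals of the log2 ratio were wider. That of miR-130a-5p, for example, was -0.66 to 0.27 when scaled to mature and star reads. The test itself was scaled to the star reads alone, which gave miR-130a-5p a log2 ratio of -0.32.

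MiR-130b and miR-301b, which lie 289 bp apart in 1 intron, moved in opposite directions between the replicates on the 5p arm. The ratio of miR-130b-5p to miR-301b-5p was 3.74 in replicate 1 and 5.54 in replicate 2, or 4.64 ± 1.3 (SD, n = 2). On the 3p arm the ratio was 1.80 and 1.96, or 1.88 ± 0.11 (SD, n = 2). The log2 ratios of the 5p arms between replicates lay 0.57 apart. Among 75 pairs of neighbouring entries within 10 kb, all above the same minimum of 500 reads, the median of this difference was 0.17 and the largest was 0.77, and 3 pairs exceeded miR-130b and miR-301b.

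Sites for the seeds were sought in the longest annotated 3′ UTR of 5 genes. Ctgf, which encodes a secreted matrix protein, is followed in the study as a target of miR-541, not of this family. Zfpm2, Meox2, Hoxa5 and Tgfbr2 are often named as targets of the family. These 4 targets were chosen for being known, so their matches are no independent support, and mRNA was not measured in these libraries. The site TTGCACT, the reverse complement of the family seed, was sought on the transcribed strand and occurred in 9.37% of the 3′ UTRs of 19915 genes. It occurred 2 times in Zfpm2, the GATA4 cofactor, and 2 times in Meox2, a homeobox gene that restrains endothelial growth. Hoxa5, a homeobox gene that also acts in endothelium, had 1 site, as did Tgfbr2, a receptor of TGF-β. Ctgf had none. Long 3′ UTRs hold such letters more often. Among genes with 3′ UTRs of similar length, the site was found in 8.20% for Zfpm2, 21.1% for Meox2, 7.40% for Hoxa5, 39.7% for Tgfbr2 and 8.61% for Ctgf.

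The sites of Zfpm2 are printed as those of the target known in the embryonic heart, and those of Meox2 as sites in a gene of the endothelium. The site is in capitals and the positions are those of NCBIM37, plus strand.
Zfpm2, chr15:40935426-40935448: tgtagcacatatggtTTGCACTg
Zfpm2, chr15:40935638-40935660: ataatcaggctccaaTTGCACTt
Meox2, chr12:37905219-37905241: gatgtttgctttggcTTGCACTg
Meox2, chr12:37905375-37905397: ggtatttgcttttgcTTGCACTg

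The seeds of the 5p arms, which held most of the reads, had other sites. GTCAGAG, for miR-301a-5p and miR-301b-5p, occurred in 10.6% of 3′ UTRs and 1 time in Ctgf. GAAAGAG, for miR-130b-5p, occurred in 13.1% and 1 time in Tgfbr2. AAAAGAG, for miR-130a-5p, occurred in 13.8%, with 1 site each in Meox2 and Hoxa5 and 2 in Tgfbr2. In 3′ UTRs of similar length, GTCAGAG was found in 9.39% for Ctgf and GAAAGAG in 50.8% for Tgfbr2, while AAAAGAG was found in 34.5% for Meox2, 9.72% for Hoxa5 and 51.3% for Tgfbr2. Zfpm2 had no site for any of the 5p seeds.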

How the data were processed

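Small RNA was sequenced on HiSeq 2500 (single-end reads) from 2 samples of E9.5 wild type hearts. Using miRDeep2 on each replicate alone, the authors placed clean reads on mm9. They deposited raw read counts per precursor of known miRNAs, not normalized, with a miRDeep2 score that they rounded. Versions of miRDeep2 and miRBase, trimming, and the treatment of reads that match several precursors are not given in the sources used here. No correction was made for how well different miRNAs are captured, so levels of different miRNAs compare reads.

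Positions were brought to coordinates counted from 1, after which all 696 precursors were identical to NCBIM37. Entries were paired by 50% reciprocal overlap on the same strand. Shares are percents of the mature reads of a replicate, and Wilson and exact intervals cover counting error only. Replicates were compared by an exact two-sided binomial test with Benjamini-Hochberg adjustment over all 431 entries. The test asks only whether these libraries, whose difference may be technical, differ beyond counting error. Its check on simulated data had counting error as the only noise, so that check says nothing about the spread between real libraries. Alternatives used edgeR 4.0.16 (exact test with the common dispersion, because there is 1 group) and DESeq2 1.42.0 size factors under R 4.3.3. Other scripts used Python 3.11.15, scipy 1.17.1 and RNAfold 2.7.2. GENCODE vM1 gave the genes and 3′ UTRs (1 gene of the list for seed matches is not reported here), and UTRs of similar length lie between 80% and 125% of a gene's own. Mature forms were compared with RefSeq. The text names every family entry, entries with the same seed, cluster neighbours, the 2 entries nearest in level to each member, markers, and the summed families of miR-148 and miR-152 and of miR-17, miR-20, miR-93 and miR-106. Members and lists were chosen with earlier results of these data known.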

Additional observations from a re-analysis of the deposited data

Results flagged for a closer look

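Reads on the loop lay outside the comparisons. The miR-130a hairpin had 6 loop reads in replicate 1 and 5 in replicate 2, above the 3 reads taken as the limit of detection in both. Of 460 entries with the same mature arm in both replicates, 19 (4.13%) had more than 3 loop reads in both. The hairpins of miR-130b, miR-301a and miR-301b had at most 1 loop read in a replicate.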

How the results depend on the processing

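The summed share of the family, 0.152%, became 0.172% with each mature sequence counted once in members and totals, 0.162% with all reads of the precursor, and 0.147% to 0.158% with 1 replicate left out. The count of differing entries stayed between 138 and 184 under other scalings, minimums and ways of counting, each with 2 of the 4 member sequences, but fell to 3 with edgeR's exact test, whose dispersion came from the same 2 libraries so that few entries could pass, and was 25 on star reads, an alternative chosen after seeing the data, with 0 members in each of those. The star comparison tested fewer entries, 177. The log2 ratio of miR-130a-3p reversed to -0.0084 with DESeq2 size factors (adjusted p = 0.98, exact binomial test), against 0.06 and an adjusted p of 0.60. With all reads of the precursor miR-301b-5p stood above miR-130a-3p on average, and 2 of the 3 neighbouring pairs in the order had ranges that did not overlap, as before. This count adds star and loop reads, and miR-301b had 163 and 166 star reads against 87 and 74 for miR-130a. Why the star arms differ was not tested. The 5p share lay between 9.93% and 11.6% for miR-130a, 93.8% and 94.2% for miR-301a, 89.9% and 90.5% for miR-130b, and 77.2% and 81.0% for miR-301b with 1 replicate left out. No paired analysis was possible because there is only 1 group. Depth limits the star arms most, at 74 to 325 reads, and 2 libraries give only a poor estimate of the spread of a single member.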
